A study of Mus musculus with 24 samples.

Results

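The RSK and MSK kinases form a family of 6 genes in the mouse, and all 6 were taken by gene symbol from the 49568 symbols in the gene counts of mouse hippocampus: Rps6ka1 (RSK1), Rps6ka3 (RSK2), Rps6ka2 (RSK3), Rps6ka6 (RSK4), Rps6ka5 (MSK1) and Rps6ka4 (MSK2). Every member passed the filter on low counts and was among the 18482 genes tested. The hippocampi came from male mice labelled as 12 weeks old, on a C57-Bl/6J background, which had been used for no other experiment. The WT mice were compared with MSK1 KD mice, which carry the kinase-dead mutation D194A in both copies of Rps6ka5, and the lines were bred apart as homozygotes. Mice of each genotype lived in standard housing (SH) or, from before birth, in an enriched environment (EE) of large cages with a running wheel and objects that were changed. Of 24 libraries, those numbered 33B (a WT EE library) and 34B (KD EE) were left out, since they did not pass the quality control of the study, leaving 6 WT SH, 5 WT EE, 6 KD SH and 5 KD EE libraries. The question was whether the other family members were expressed at another level where the kinase activity of MSK1 was missing, and whether housing changed the level of any member.

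By way of background, the kinases of this family lie at the end of the MAP kinase cascades. The RSKs are switched on by ERK and phosphorylate substrates in the cytosol and the nucleus, among them ribosomal protein S6, TSC2 and BAD. The MSKs are nuclear, are switched on by ERK or by p38, and phosphorylate CREB and histone H3 at genes that neuronal activity turns on. Each protein holds 2 kinase domains in a row. The C-terminal domain takes part in switching the protein on, and the N-terminal domain phosphorylates the substrates. The aspartate of an Asp-Phe-Gly motif in the N-terminal domain binds the magnesium that comes with ATP, and it is this residue that the KD mutation replaces with alanine.

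The stretch of coding sequence around this aspartate is shown for each member, since it is the site of the mutation and the part in which the members resemble each other. The sequences are 33 bases of the reference transcripts of GENCODE M21 (GRCm38), written 5′ to 3′ on the strand of the gene, and the capitals mark the aspartate codon.
Rps6ka5 (MSK1), codon 194: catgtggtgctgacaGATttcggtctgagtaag
Rps6ka4 (MSK2), codon 179: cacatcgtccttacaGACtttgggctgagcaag
Rps6ka1 (RSK1), codon 211: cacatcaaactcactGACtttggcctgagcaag
Rps6ka3 (RSK2), codon 211: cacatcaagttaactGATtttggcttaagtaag
Rps6ka2 (RSK3), codon 202: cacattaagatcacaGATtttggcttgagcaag
Rps6ka6 (RSK4), codon 332: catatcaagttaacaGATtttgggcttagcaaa

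Of the 33 bases, Rps6ka4 shared 24 with Rps6ka5, whereas the RSK genes shared 21 or 22. Of the 11 residues, MSK2 shared 10 with MSK1, RSK1, RSK2 and RSK4 shared 9, and RSK3 shared 8. Over the whole proteins, MSK1 (863 residues) and MSK2 (773 residues) were identical at 64.8% of aligned residues. The RSKs were identical to each other at 70.8% to 81.3%, and an RSK and an MSK at 44.7% to 46.6%. The codon of Rps6ka5 lies within exon 5, at chr12:100616030-100616032 on the minus strand, and that of Rps6ka4 also lies within 1 exon. In the 4 RSK genes the codon is split between exons. The genes lie on 5 chromosomes of GRCm38. Rps6ka5 is at chr12:100548439-100726983 (minus strand), Rps6ka4 at chr19:6829085-6840636 (minus), Rps6ka1 at chr4:133847290-133887797 (minus) and Rps6ka2 at chr17:7170115-7303315 (plus). Rps6ka3, at chrX:159210307-159368244 (plus), and Rps6ka6, at chrX:111388192-111537959 (minus), are both X-linked, and all mice were male. The counts are sums over whole genes, so the mutation itself cannot be seen in them and the genotype of a library was not checked by it. A count of Rps6ka5 in a KD library is a count of the mutant mRNA.

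Libraries held 8911999 to 56752074 counts on genes (median 30265878), and between 14.1% and 18.6% of the tallied fragments were assigned to no single gene. This share takes together all kinds of unassigned fragment that the counting reported, whatever the reason. In no pair of libraries were the counts identical. The 8 markers of hippocampal neurons were detected in every library. Markers of choroid plexus, a neighbouring tissue that lines the ventricles, varied widely with housing. The score of 12 such genes, the mean of their log2 CPM, was between 0.02 and 5.19 in the SH libraries and between 0.33 and 6.19 in the EE libraries, and none of the genes was at 0 in any library. The score of 7 striatum markers was 4.79 in library 14 (WT SH) and between 3.27 and 3.94 in the other libraries, and thalamus markers were highest in library 12 (WT SH), at 5.49. The study itself set aside libraries 2, 9, 12, 31B and 35A for poor correlation within their groups, and results without these 5 are given as those of the 17 libraries. Nothing in the labels says whether a library came from a single mouse, so the p-values measure the spread between these libraries. Housing was given by cage, and which libraries shared a cage or a litter is not known here. A difference between housings therefore cannot be told apart from one between cages or litters.

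Every member was detected in each of the 22 libraries, with Rps6ka6 always the lowest per length. The level of a gene is given as CPM, its share of the counts on the genes tested in parts per 1000000, scaled by the TMM method. Levels of different genes were compared after division by gene length in kilobases. The lengths are those of GENCODE M21 and may differ from the bases on which the authors counted. Over all annotated exon bases, the mean level over the 22 libraries was 10.7 ± 0.970 (SD) CPM per kb for Rps6ka4, 6.73 ± 0.381 for Rps6ka2, 5.65 ± 0.692 for Rps6ka3, 3.25 ± 0.323 for Rps6ka1, 2.01 ± 0.234 for Rps6ka5 and 1.05 ± 0.0947 for Rps6ka6. In this order, the ranges of Rps6ka2 and Rps6ka3 overlapped, and Rps6ka3 was above Rps6ka2 in 1 of the 22 libraries. The other neighbours kept their places in every library.

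The order depended on which bases were counted as the gene, because Rps6ka5 has 11932 annotated exon bases but 4406 in the transcript with its longest coding sequence. Per kilobase of that transcript, a length chosen after the data were seen, Rps6ka5 was at 5.44 ± 0.633 CPM (SD, n = 22), close to Rps6ka1 at 6.03 ± 0.5995 and Rps6ka3 at 6.49 ± 0.795. Rps6ka2 (12.4 ± 0.703) and Rps6ka4 (12.3 ± 1.12) then led together, and each of them was in its own place in only 13 of the 22 libraries. Per kilobase of coding sequence, also chosen after the data were seen, Rps6ka2 led at 30.6 ± 1.73 CPM, and Rps6ka5, at 9.25 ± 1.08, was above Rps6ka1 (6.23 ± 0.619) in every library. The level of MSK2 mRNA against that of MSK1 depended on the length in the same way. The ratio of Rps6ka4 to Rps6ka5 was 5.397 ± 0.856 (SD, n = 22) over all exon bases, 2.31 ± 0.366 over the transcripts and 1.82 ± 0.288 over the coding bases. Rps6ka4 was the higher of the pair in every library under each length, the lowest ratio being 1.23 in library 9 over the coding bases. Only Rps6ka6 was last under all 3 lengths, in every library.

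**Figure D1:**
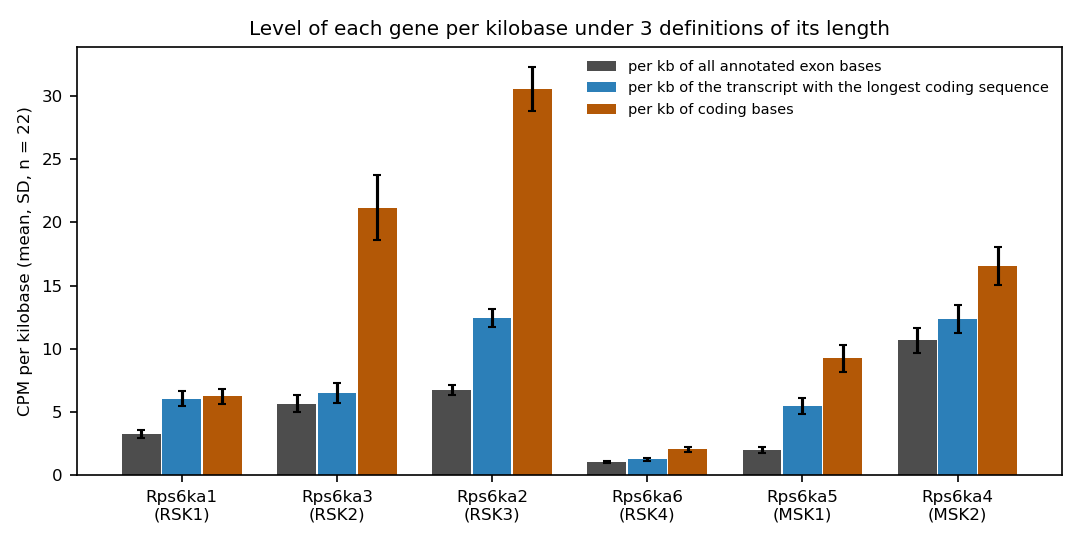
Mean CPM per kilobase of each gene over the 22 libraries, with bars of 1 SD, for 3 definitions of its length (vertical axis, CPM per kilobase). Rps6ka6 is lowest under each, whereas Rps6ka4 leads over all exon bases, at 10.7, and Rps6ka2 over coding bases, at 30.6.

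To ask whether the other kinases of the family differ in KD mice, each member was compared between genotypes in SH, in EE and averaged over housing. No member was called different by edgeR, and the intervals around the estimates were narrow. Averaged over housing, the estimates for the 5 genes other than Rps6ka5 lay between −0.02 and 0.05 on the log2 scale, as KD minus WT. The upper ends of their 95% intervals lay between 1.07-fold and 1.14-fold. No member was called in any of the 3 comparisons, where a call needed both an adjusted p no higher than 0.05 and a log2 difference of at least 0.38 either way (1.3-fold). No gene at all was called in these comparisons (0% of the 18482 genes tested), whereas DESeq2 called 2 genes in SH, neither of them a member, and 0 in the others. No member had an unadjusted p below 0.05 either, with edgeR or with DESeq2, against 6.06% of all genes in the averaged comparison of edgeR.

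The mRNA of Rps6ka5 itself, which in KD mice encodes the inactive kinase, was present in both genotypes. In WT SH its level was between 22.3 and 28.2 CPM, with a median of 25.4, and in KD SH between 21.9 and 28.2 CPM, with a median of 25.7. In WT EE the 5 libraries were at 19.3, 20.1, 21.5, 21.7 and 24.3 CPM, and in KD EE at 20.96, 21.7, 21.9, 24.1 and 29.5 CPM. The genotypes thus overlapped in both housings, as they did for nearly all genes. Of the 18482 genes tested, 0.276% did not overlap between genotypes in SH and 0.325% in EE. The highest library of all, at 29.5 CPM, was KD EE library 9, which is also the shallowest. The difference of KD from WT was 0.03 ± 0.08 (SE) on the log2 scale in SH (adjusted p = 0.98) and 0.14 ± 0.09 in EE (95% interval −0.05 to 0.32, adjusted p = 1). Averaged over housing it was 0.08 ± 0.06 (−0.04 to 0.21, adjusted p = 0.843), which as a ratio of KD to WT is 0.971 to 1.16. In EE, the difference was 0.06 without library 9 and 0.19 without WT EE library 31B.

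Rps6ka4 encodes MSK2, the member closest to MSK1 in sequence and the other kinase that acts on CREB and histone H3 in the nucleus. It was between 36.3 and 44.4 CPM in WT SH (median 39.6) and between 32.8 and 42.8 CPM in KD SH (median 38.6). The WT EE libraries were at 34.6, 35.2, 36.4, 38.1 and 42.2 CPM, and the KD EE libraries at 32.4, 34.03, 39.4, 39.4 and 43.1 CPM. The 4 groups covered nearly the same range. The difference of KD from WT was −0.05 ± 0.08 (SE) in SH, 0.02 ± 0.08 in EE and −0.02 ± 0.06 averaged over housing (95% interval −0.13 to 0.10, adjusted p = 0.979). In GENCODE M21 the gene shares exon bases with 2 genes of the same strand, 654 with CAAA01066123.1 and 59 with the miRNA gene Mir5046, and Rps6ka5 shares 179 with Gm49703. Of these 3 symbols, only Mir5046 is among those of the count files, and whether fragments of either kinase gene went uncounted there was not tested.

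Among the RSKs, Rps6ka3 encodes RSK2, the kinase that is lost in Coffin-Lowry syndrome. It lay between 43.0 and 51.6 CPM in WT SH (median 44.0) and between 40.1 and 64.2 CPM in KD SH (median 45.5). The WT EE libraries were at 40.7, 43.3, 44.1, 45.1 and 57.6 CPM, and the KD EE libraries at 42.5, 47.3, 48.2, 49.5 and 53.3 CPM. Of these, library 5 in KD SH and library 35A in WT EE stood apart from their groups. The averaged difference of KD from WT was 0.05 ± 0.07 (SE), with an interval of −0.10 to 0.19 (adjusted p = 0.945). In SH, where it was 0.04, it was −0.06 without library 5 and 0.08 without KD SH library 2.

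Rps6ka1, which encodes RSK1, had its mean in WT SH at 14.6 ± 0.949 CPM (SD, n = 6), beside 14.4 ± 1.59 CPM for the 6 libraries of KD SH. For the 5 libraries of WT EE it was 13.02 ± 1.43 CPM, and for the 5 of KD EE it was 13.1 ± 0.880 CPM. Its averaged genotype difference was −0.00 ± 0.06 (SE) on the log2 scale, with an interval of −0.13 to 0.12. In GENCODE M21 it shares 247 exon bases with Gm12977 on the opposite strand, a symbol that the count files also hold. Since strand was not used in counting, fragments of the pair could not be told apart there, and how many were lost was not tested. Rps6ka2 (RSK3) was the least variable member. All 22 of its values were between 58.2 and 74.0 CPM, and its averaged difference was 0.02 ± 0.04, with an interval of −0.06 to 0.10. Rps6ka6 (RSK4) was between 4.36 and 6.16 CPM, on 44 to 294 counts per library, with a difference of 0.02 ± 0.07 and an interval of −0.13 to 0.16. For these 3 genes as well, every group overlapped every other. Overlap was common to nearly all genes, since between 0.276% and 1.19% did not overlap in a comparison of 2 groups.

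**Figure D2:**
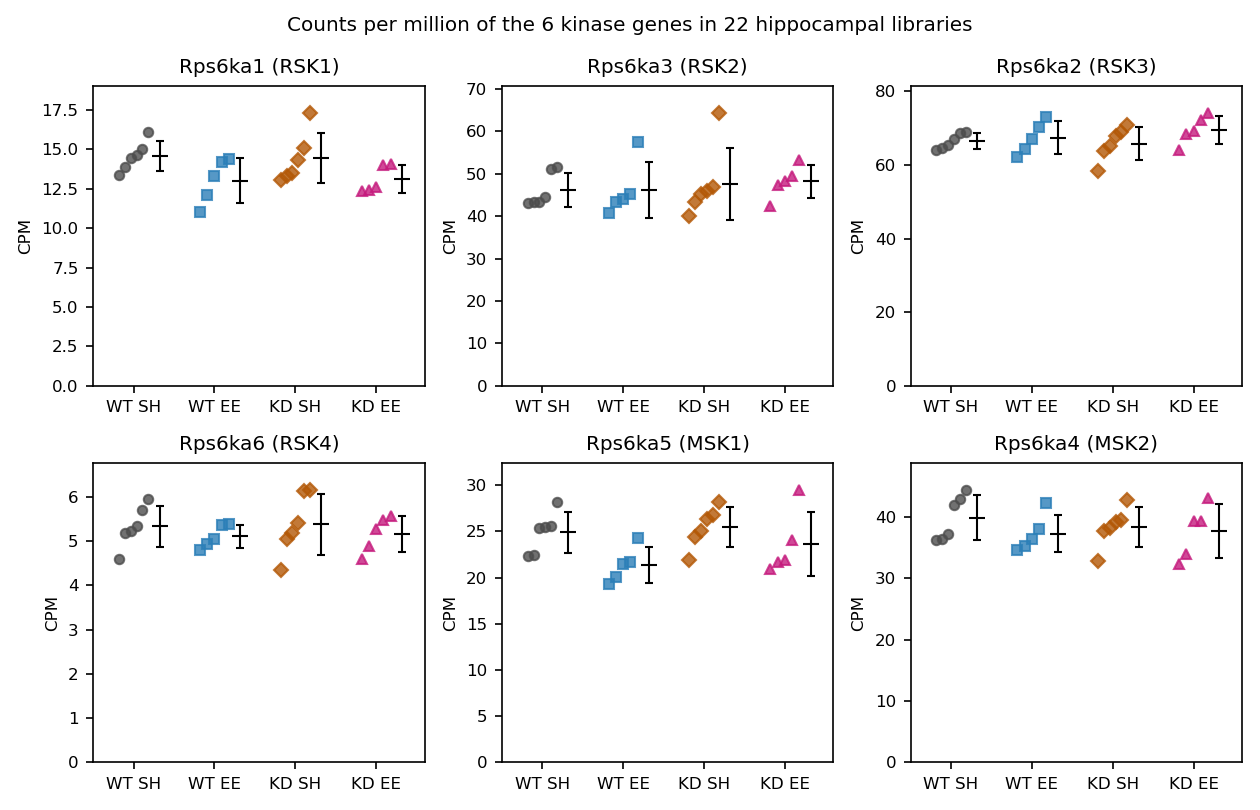
CPM of each gene (vertical axis, from 0) in the 22 libraries, by group (WT or KD, standard housing SH or enriched environment EE). Points are libraries sorted by value, and the cross bar beside each group is the mean with 1 SD. The groups of each gene overlap, as those of nearly all genes did. Single high points stand out for Rps6ka3 in KD SH (64.2 CPM) and WT EE (57.6 CPM).

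**Figure D3:**
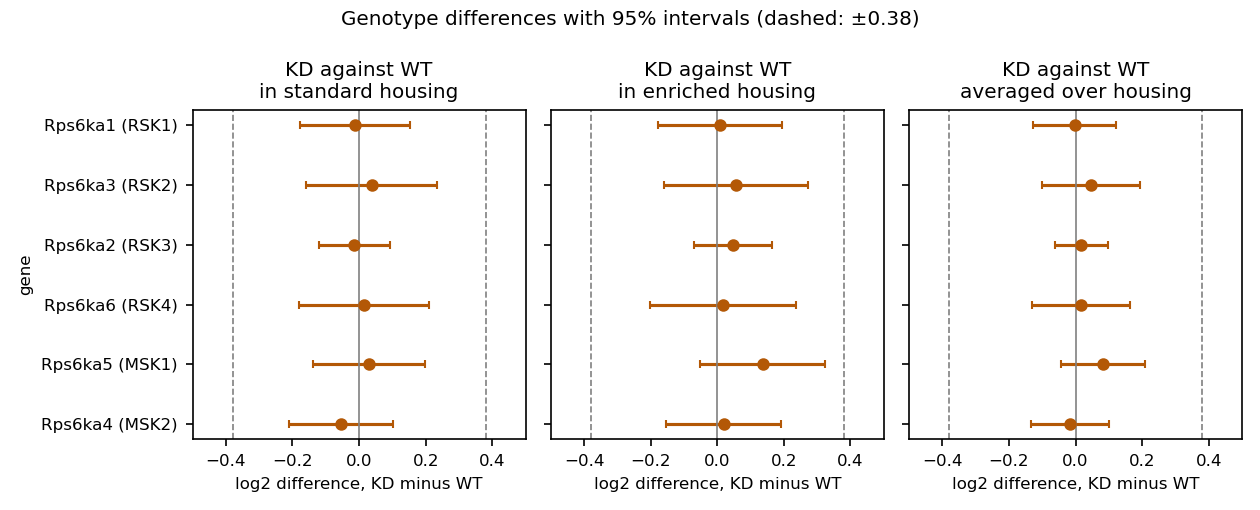
Log2 difference of KD from WT for each gene (horizontal axis) with its 95% interval, in SH, in EE and averaged over housing, from edgeR. Every interval crosses 0 and stays within the dashed lines at ±0.38, the widest upper end being that of Rps6ka5 in EE at 0.32.

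The housing comparisons asked whether enrichment changed a member, and here Rps6ka5 and Rps6ka1 had the lowest p-values, without being called. Averaged over genotype, Rps6ka5 was lower in EE by −0.17 ± 0.06 (SE) on the log2 scale, or 0.890-fold (95% interval 0.815 to 0.971, adjusted p = 0.164, edgeR). Rps6ka1 was at −0.15 ± 0.06, or 0.899-fold (0.824 to 0.980, adjusted p = 0.203). None of the 6 members was called by edgeR, where 0.146% of all genes were, and 2 of 6 had an unadjusted p below 0.05, as did 16.1% of all genes. With DESeq2, which called 214 genes (1.16%), also 0 members were called and 2 had such a p, as did 16.7% of all genes. In these bulk samples, fewer cells that express a gene and less of its mRNA per cell cannot be told apart.

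Within the genotypes, the difference of EE from SH for Rps6ka5 was −0.22 ± 0.09 (SE) in WT (adjusted p = 0.448) and −0.12 ± 0.09 in KD (adjusted p = 0.675). The interaction of genotype and housing, the difference in KD minus that in WT, was 0.11 ± 0.12 (95% interval −0.15 to 0.36, adjusted p = 1), so that the genotypes were not shown to differ. Without KD EE library 9, the difference in KD was −0.20 and the interaction 0.03. Without KD SH library 4, the difference in KD was −0.08, and without WT EE library 31B the interaction was 0.16. For Rps6ka1 the difference was −0.16 ± 0.08 in WT and −0.14 ± 0.09 in KD, with an interaction of 0.02 ± 0.12. Without KD SH library 2, the difference in KD was −0.08 and the interaction 0.08, and without WT EE library 35A the interaction was −0.03. For Rps6ka4, averaged over genotype, EE differed from SH by −0.06 ± 0.06, for Rps6ka3 by 0.01 ± 0.07, for Rps6ka2 by 0.05 ± 0.04 and for Rps6ka6 by −0.06 ± 0.07. The interaction estimates of the 6 members were all between 0.00 and 0.11, with adjusted p = 1 each, and those of Rps6ka1, Rps6ka3 and Rps6ka6 changed sign when some single libraries were left out. No gene was called in the interaction or in either housing comparison within a genotype (0% of those tested each time), whereas DESeq2 called 18 genes in WT and 3 in KD, none of them a member. In WT, 1 member had an unadjusted p below 0.05 with either tool, as did 8.65% of all genes with edgeR. In KD and in the interaction, 0 members had, against 9.63% and 2.04% of all genes.

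Which libraries were used mattered for Rps6ka5. In the 17 libraries, the averaged difference was −0.25 ± 0.06 (SE) with an adjusted p = 0.00534, below the adjusted p threshold but short of the 0.38 that a call required. The 17 were chosen by their correlation within groups, that is, by expression itself. Such a choice can narrow the spread within groups, so the p-values and ranges of the 17 are not those of an unselected set. In those libraries 5.48% of the 18701 genes tested passed the adjusted p alone and 3.85% were called. Each genotype gave a similar value, −0.27 ± 0.08 in WT (adjusted p = 0.0732) and −0.24 ± 0.08 in KD (adjusted p = 0.151), where 3.55% and 1.74% of genes were called. The interaction was 0.03 ± 0.11. Among the 17 libraries, Rps6ka5 was between 22.4 and 28.2 CPM in WT SH and between 20.1 and 21.7 CPM in WT EE. In KD it was between 24.3 and 28.2 CPM in SH and between 20.96 and 24.1 CPM in EE. Neither genotype overlapped between housings in the 17, whereas over the 22 libraries both did. In the 17, EE lay below SH without overlap for 4.31% of the 18701 genes in WT and for 0.984% in KD. Rps6ka1 went the other way, to −0.07 ± 0.06 in the 17 libraries (adjusted p = 0.609). The 5 libraries with a letter in their name were all EE. Without them the averaged difference was −0.17 for Rps6ka5 and −0.08 for Rps6ka1.

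Choroid plexus markers moved with housing, and Rps6ka5 moved with them in several libraries. In the 17 libraries, the choroid plexus score was between 0.02 and 3.53 in SH and between 3.67 and 6.19 in EE, so the housings did not overlap in it, and its share in the difference cannot be told apart from that of housing. Among the 5 libraries the study set aside, KD SH library 2 had a score of 5.19 and the lowest Rps6ka5 of its group, at 21.9 CPM. WT SH library 12, with a score of 4.55, was also the lowest of its group, at 22.3 CPM. Conversely, KD EE library 9 had the lowest score of its group, 1.69, and the highest Rps6ka5 of all 22. WT EE library 31B, at a score of 0.33, had the highest Rps6ka5 of its group, 24.3 CPM. Against this order, WT EE library 35A had a score of 0.44 and the lowest Rps6ka5 of all libraries, 19.3 CPM. Outside these 5 libraries the order was also mixed. WT SH library 11, with a score of 3.53, was low at 22.4 CPM. KD EE library 7, at a score of 3.67, had the lowest Rps6ka5 of its group, 20.96 CPM, whereas library 32A, at 5.36, had 24.1 CPM. KD SH library 4, at a score of 1.70, had the highest of its group, 28.2 CPM. With the score as a covariate in edgeR over the 22 libraries, the averaged housing difference of Rps6ka5 was −0.08 ± 0.06 (SE, adjusted p = 0.542), −0.15 ± 0.08 in WT and −0.02 ± 0.09 in KD. That of Rps6ka1 was −0.24 ± 0.06 (adjusted p = 0.0844), with −0.24 ± 0.08 in WT and −0.25 ± 0.09 in KD. Rps6ka1 was highest of all in libraries 2 (17.3 CPM) and 12 (16.1 CPM), both SH libraries with high scores. In contrast, library 11 had the lowest Rps6ka1 of WT SH, 13.35 CPM, at its score of 3.53. KD EE library 36A, at a score of 6.12, had 12.43 CPM. The highest Rps6ka5 in WT SH, 28.2 CPM, was that of library 14 with its high striatum markers, whose part was not tested. Without that library, the difference in WT was −0.19.

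**Figure D4:**
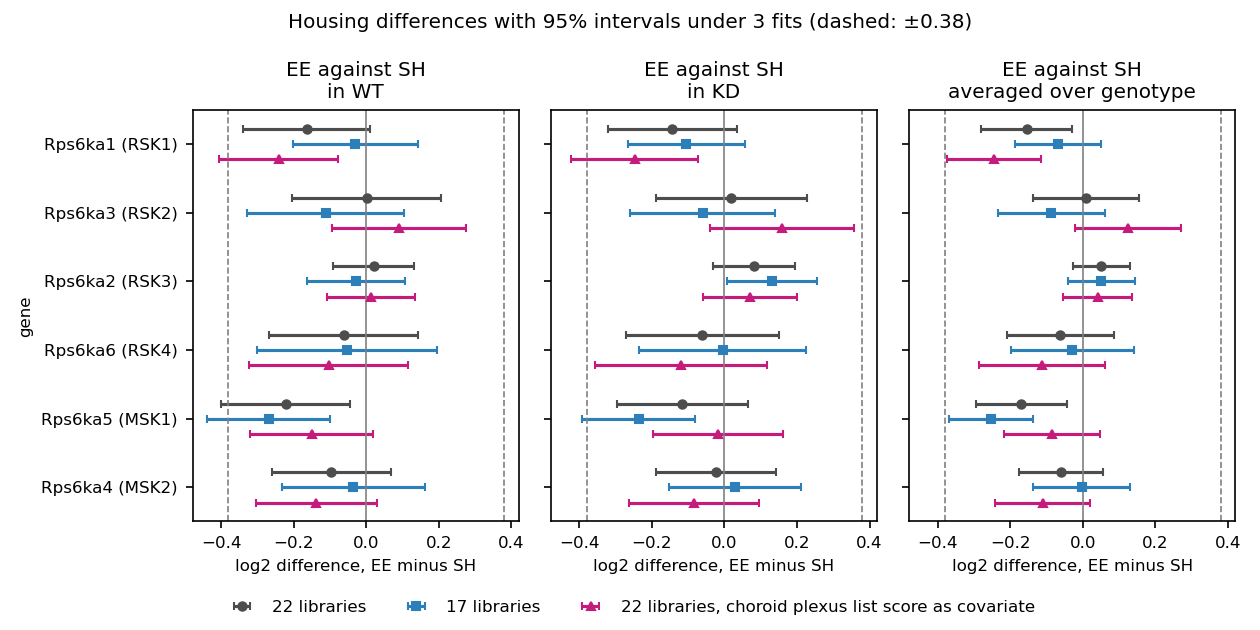
Log2 difference of EE from SH (horizontal axis) with its 95% interval in WT, in KD and averaged over genotype, for the 22 libraries (circles), the 17 libraries (squares) and the 22 libraries with the choroid plexus score as a covariate (triangles). Rps6ka5 lies lowest in the 17 libraries (−0.25 averaged) and Rps6ka1 lowest with the covariate (−0.24), and no averaged estimate reaches the dashed lines at ±0.38.

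**Figure D5:**
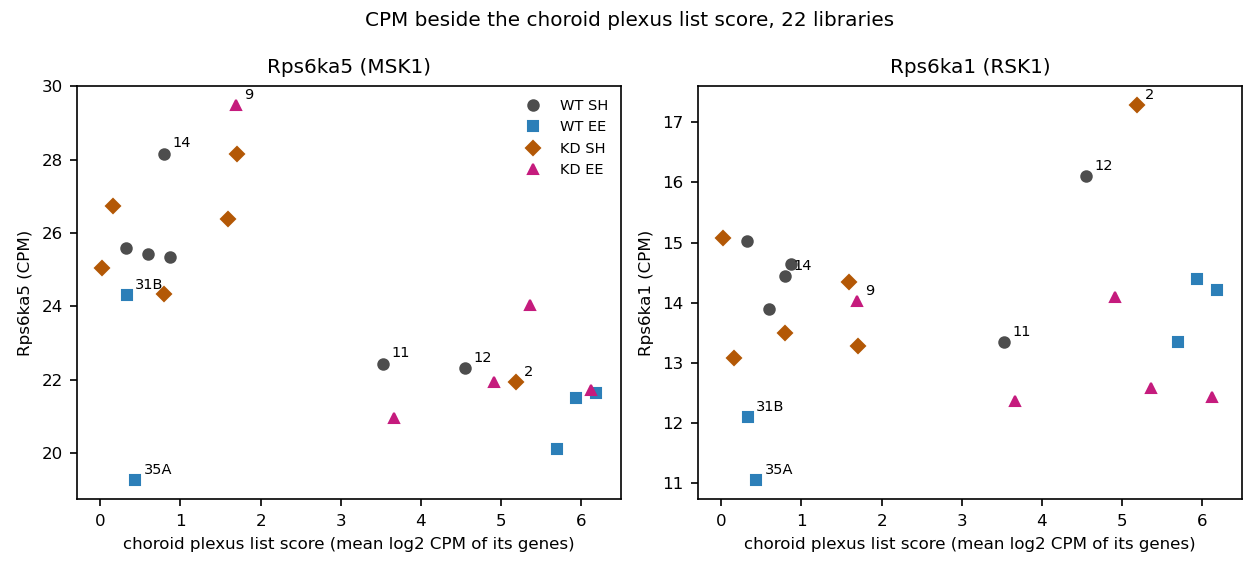
CPM of Rps6ka5 and Rps6ka1 (vertical axes, not from 0) against the choroid plexus list score (horizontal axis, mean log2 CPM of 12 genes) in the 22 libraries, by group. Libraries 2, 9, 11, 12, 14, 31B and 35A are labelled. EE libraries 9, 31B and 35A lie at low scores and SH libraries 2, 11 and 12 at high scores.

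The members varied together to different degrees across libraries. The SD over the 22 libraries of the log2 ratio of 2 members was between 0.154 (Rps6ka1 or Rps6ka2 to Rps6ka4) and 0.272 (Rps6ka3 to Rps6ka4). For 7 of the 15 pairs it was smaller, and for 8 larger, than 2 unrelated genes with the same SDs would give. That of Rps6ka3 to Rps6ka4 exceeded the SD of Rps6ka3 (0.165) and of Rps6ka4 (0.131) on their own, so these members lay on opposite sides of their means in part of the libraries. The log2 ratio of their CPM was 0.97 in library 5, 0.73 in library 35A and 0.72 in library 9, the highest of the 22, and −0.05 in WT EE library 17, the lowest. These 3 libraries had the highest Rps6ka3, and their Rps6ka4 was number 2, 4 and 1 from the lowest, in that order. They also ranked 2, 1 and 4 of the 22 in the share of fragments assigned to no single gene, at 16.1%, 18.6% and 15.8%. Libraries 31B and 12, which ranked 3 and 5 in that share, ranked only 13 and 17 in the ratio. The part of this share in the ratio was not tested. The transcripts of the pair lie at opposite ends in base composition. Rps6ka3 had 40.5% G and C, less than all but 6.17% of the 14888 tested genes with a coding transcript, and Rps6ka4 had 60.3%, more than 95.4% of them. Rps6ka5 (42.7%) and Rps6ka6 (39.7%) were also at the low end. For Rps6ka5, the SD of the log2 ratio was 0.201 to Rps6ka3 (0.2345 if unrelated) and 0.238 to Rps6ka4 (0.212 if unrelated). For Rps6ka6 it was the other way round, at 0.230 to Rps6ka3 (0.209 if unrelated) and 0.167 to Rps6ka4 (0.184 if unrelated). The part of base composition in these ratios was not tested.

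The genes whose log2 CPM followed each member most closely were found by the SD of the log2 ratio over the 22 libraries, as a description. For Rps6ka3 they were Rab30 (0.0740), Ythdc2 (0.0792) and Vps37a (0.0818), against an SD of 0.165 for Rps6ka3 itself. Their transcripts had 38.1%, 42.0% and 39.8% G and C, beside 40.5% for Rps6ka3. For Rps6ka4, with 60.3%, they were Gm16286 (0.0773), Mark4 (0.0818) and Gpaa1 (0.0820), whose transcripts had 54.9%, 60.6% and 60.2%. For Rps6ka5 they were 5730455P16Rik (0.102), Rnf170 (0.103) and Gria2 (0.108), the latter a subunit of the AMPA receptor, with 42.6%, 42.0% and 36.8% beside 42.7% for Rps6ka5. The SDs of Rps6ka4 and Rps6ka5 themselves were 0.131 and 0.167. For Rps6ka1, with an SD of 0.142, the closest genes were Snapin, Setd6 and Gnai2 (0.0973 to 0.102). For Rps6ka2, with an SD of only 0.0825, they were G3bp1, Nfe2l1 and Armc9 (0.0563 to 0.0611). For Rps6ka6, with an SD of 0.129, they were Snrpd3, Gsr and Lsm6 (0.0945 to 0.0969). Base composition was less alike for some of these. The transcripts of Snrpd3, Gsr and Lsm6 had 47.7%, 50.1% and 45.9% G and C, beside 39.7% for Rps6ka6. Those of Snapin, Setd6 and Gnai2 had 45.6%, 55.4% and 56.7%, beside 57.3% for Rps6ka1, and those of G3bp1, Nfe2l1 and Armc9 had 48.9%, 54.4% and 51.3%, beside 54.3% for Rps6ka2. No member was among the closest genes of another.

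The pathway around the family was examined in 51 genes, and none was called by edgeR in any of the 7 comparisons over the 22 libraries. Leaving out libraries was tried for these genes after the data were seen. Averaged over housing, 0 of the 51 genes had an unadjusted p below 0.05 between genotypes, against 6.06% of all genes tested. Averaged over genotype, 10 had such a p between housings (19.6%, against 16.1% of all genes), 6 of them higher and 4 lower in EE. DESeq2 called 0 of the 51 between genotypes and 1, Sgk1, between housings, where it called 1.16% of all genes. In the 17 libraries, edgeR called 2 of the 51 averaged over genotype, Mapkapk3 and Sgk1, beside 3.85% of all genes, and 0 in the other comparisons. The 17 were chosen by expression, and their choroid plexus score did not overlap between housings. The part of that score in these 2 calls was not tested. Mapkapk3 was a low gene, with group means between 2.44 (WT SH) and 3.14 CPM (WT EE) over the 22 libraries. Of the fits that each left out 1 library, 5 of 22 called Sgk1, averaged over genotype. They were those without libraries 2, 7, 9, 12 or 31B, and no other gene of the 51 was called in any fit. With all 22 libraries, edgeR called 0.146% of all genes in this comparison. The shares of all genes called in the fits that left out a library are not given here. The lists are given from the kinases that switch the family on to the genes that it acts on.

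Among the 13 upstream kinases, the estimates of KD from WT averaged over housing had a median of −0.01, and that of all genes was −0.00. Mapk11, which encodes p38 beta, had the lowest p (0.11 ± 0.07 (SE), adjusted p = 0.809). Between housings, 3 of the 13 had an unadjusted p below 0.05. Mapk3, which encodes ERK1, was at −0.15 ± 0.05 in EE (adjusted p = 0.147). Mapk11 was at 0.15 ± 0.07 (adjusted p = 0.27). Of the 5 other kinases that MAP kinases activate, Mapkapk3 was at 0.33 ± 0.12 between housings (adjusted p = 0.17), and at 0.51 in the 17 libraries (adjusted p = 0.00575), and Mapkapk2 at 0.09, and between genotypes Mapkapk5 was at −0.19 ± 0.14 and Mknk2 at −0.06. The 4 S6 kinases and kinases of like name had genotype estimates between 0.01 and 0.08, the highest being that of Rps6kc1. Rps6kb1, which encodes S6K1, was at −0.11 between housings (adjusted p = 0.26).

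Of the 7 other kinases that phosphorylate CREB at the site of the MSKs, Sgk1, a kinase gene that glucocorticoids turn on, had the largest housing estimate. It was between 46.0 and 53.8 CPM in WT SH (median 50.7) and between 43.5 and 58.1 CPM in KD SH (median 48.9). The WT EE libraries were at 55.4, 60.2, 65.5, 96.4 and 127.4 CPM, and the KD EE libraries at 47.5, 49.2, 55.3, 75.1 and 148.2 CPM. The housings thus overlapped in KD but not in WT, where 1.19% of all genes did not overlap, and the highest values were those of WT EE library 35A and KD EE library 36A. The averaged difference of EE from SH was 0.64 ± 0.16 (SE) on the log2 scale (adjusted p = 0.0598, edgeR). It was 0.44 without library 36A (adjusted p = 0.14), whereas in the 17 libraries it was 0.67 (adjusted p = 0.00744). Within genotypes it was 0.68 in WT, or 0.45 without library 35A, and 0.61 in KD, or 0.20 without library 36A. Between genotypes Sgk1 was at −0.06 ± 0.16 averaged over housing, at −0.27 without library 36A and at 0.05 without library 35A. Prkaca and Prkacb, which encode catalytic subunits of protein kinase A, were at −0.07 (Prkaca, between housings) and 0.05 (Prkacb, between genotypes), and Akt1 was at −0.08 between genotypes. Of the 12 substrates, Creb1 was at 0.11 ± 0.06 between genotypes (adjusted p = 0.81) and Bad at 0.11. Rps6, the ribosomal protein that gave the family its gene names, was at −0.14 ± 0.05 between housings (adjusted p = 0.121) and Hmgn1, a nucleosome-binding substrate of the MSKs, at 0.06.

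The last list held 10 genes that neuronal activity turns on, chosen as genes that MSK and CREB act on. None was called. Between genotypes in SH, the estimates were below 0 for 10 of 10 genes, with a median of −0.18, and 3 had an unadjusted p below 0.05 with edgeR, as did 5.76% of all genes. Junb was at −0.41 ± 0.14 (SE, adjusted p = 0.811) and Nr4a3 at −0.23 ± 0.10 (adjusted p = 0.811). Between genotypes in EE the median was 0.03, and 0 had such a p, against 2.61% of all genes. Between housings in KD, 10 of 10 were above 0 with a median of 0.33, and 4 had an unadjusted p below 0.05, as did 9.63% of all genes. Per1 was at 0.34 ± 0.12 (adjusted p = 0.467) and Nr4a1 at 0.43 ± 0.16 (adjusted p = 0.478). Between housings in WT the median was −0.04. The interaction was above 0 for 9 of 10 genes, with 1 unadjusted p below 0.05 (Junb, 0.44 ± 0.20), against 2.04% of all genes, and adjusted p = 1 throughout. Values of single genes rested in part on single libraries. Leaving out 1 library moved the interaction of Junb between 0.33 (without KD EE library 32A) and 0.55 (without KD EE library 8), and the housing difference in KD of Nr4a1 between 0.28 and 0.52 without the same libraries. The medians over all genes in these comparisons lay between −0.00 and 0.01. The comparisons share groups, so these counts are not independent of each other. Nor are the genes of the list, which varied together between libraries. Junb and Nr4a1, for example, were both lowest in library 12 and highest in library 10 among WT SH. Among KD EE both were lowest in library 8 and highest in library 32A. A few libraries can therefore set the sign of many of the 10 genes at once. DESeq2 called 0 of the 10 genes in any comparison.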

How the data were processed

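RNA-seq libraries (polyA-selected, 150-bp paired-end reads) were made from mouse hippocampus by the authors. Skewer was used for trimming, STAR 2.5 for alignment to GRCm38, and HTSeq for counting reads of unique alignment on Ensembl genes, ignoring strand. The deposited files hold these raw counts per gene symbol, and a further deposited table of scaled values was not used here. Groups and library names came from the sample labels.

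From the counts, 22 libraries were fitted as 1 quasi-likelihood model of 4 group means in edgeR 4.0.16 (R 4.3.3), after filterByExpr and TMM scaling. In each of the 7 comparisons, p-values were Benjamini-Hochberg adjusted across all 18482 genes tested, and all p and adjusted p in the text are from this model unless DESeq2 1.42.0 is named. Intervals are 95% intervals of the fitted differences. CPM were scaled by library sizes and TMM factors from the 18482 genes tested in the 22 libraries, also where the 17 are described. List scores are mean log2 CPM with a prior count of 2. The test was tried on simulated counts before use. The shallowest library had 44 counts of Rps6ka6, and counting error and biological spread enter the intervals together. No member was at 0 in the 22 libraries.

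Exon positions, transcripts and coding sequences are those of GENCODE M21 on GRCm38, and protein identity was computed with Biopython 1.88 from translated transcripts. The authors counted on an Ensembl annotation of GRCm38, whose exon bases may differ from these. GC content is that of the longest coding transcript. Figures were drawn with matplotlib 3.10.9.

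The members and gene lists were chosen with earlier results of these data known. The genes named are the 6 members, in each pathway list those called and the 2 with the lowest unadjusted p in each averaged comparison, and for each member the 3 genes with the smallest SD of the log2 ratio. Genes named by the rule also have values of other comparisons beside them. A gene that the rule would name among the upstream kinases is not reported here.

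Alternatives were the 17 and all 24 libraries, DESeq2, its size factors in edgeR, no filter, a filter of 10 or more counts in all libraries, a call by adjusted p without the fold, fits of just the compared groups, no lettered libraries, the choroid plexus score as a covariate, no libraries 12 and 14, and the omission of each library by itself. The 2 other gene lengths, and the omission of libraries for the pathway genes, were added after the data were seen.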

Additional observations from a re-analysis of the deposited data

Results flagged for a closer look

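Of the 24 groups of values (6 genes in 4 groups), 2 held a library far from the rest of its group by Dixon's test, which chance alone gives in about 1 of 20 groups. Rps6ka3 was at 64.2 CPM in library 5 (KD SH), where the next library was at 46.9 CPM, and at 57.6 CPM in library 35A (WT EE), where the next was at 45.1 CPM. The averaged genotype difference of Rps6ka3 was −0.00 without library 5 and 0.09 without library 35A, with 0.05 over all 22 libraries, and it was not called in any of the 3 cases. In these libraries 16.1% and 18.6% of fragments were assigned to no single gene, and the part of this in the high values was not tested.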

How the results depend on the processing

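Over 11 alternatives and 22 fits that each left out 1 library, no member was called in any of the 7 comparisons, and the 228 counts of members called were all 0. Of the 1368 member values, 1253 kept their sign and 115 changed it, none of them called. The averaged genotype differences of the 6 members stayed between −0.08 and 0.11, with adjusted p of at least 0.711. The averaged housing difference of Rps6ka5 ran from −0.25 (17 libraries, adjusted p = 0.00534) to −0.08 (choroid plexus score as a covariate), and from −0.21 (without KD EE library 9) to −0.15 (without KD SH library 4) when libraries were left out. That of Rps6ka1 ran from −0.24 (covariate) to −0.07 (17 libraries). With adjusted p alone, Rps6ka5 would pass in the 17 libraries and not in the 22. The cause of these shifts was not tested. No paired analysis was possible because the library numbers in the labels are not shared between groups. Levels per kilobase moved by more than 1 SD for every member under both other lengths. The depth limits Rps6ka6 most, with as few as 44 counts in a library.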

Other observations

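Scaled over all 24 libraries, library 33B (WT EE), which failed the quality control of the study, held Rps6ka2 at 67.8 CPM, Rps6ka3 at 48.0, Rps6ka4 at 35.6, Rps6ka5 at 22.8, Rps6ka1 at 14.9 and Rps6ka6 at 3.92 CPM. In library 34B (KD EE), with 16442 counts on genes in all, the other 5 members had 0 counts and Rps6ka1 had 2, so that no level could be read.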
